A study of Mus musculus with 6 samples.

Results

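The genes described here are 9 regulators of the myeloid lineage, namely the transcription factor genes Spi1, Cebpa, Cebpb, Irf8 and Ikzf1, the growth factor gene Csf1 and the receptor genes Csf1r, Csf2ra and Csf2rb. Members were found by the gene symbol that the authors' deposited intensity table gives for each probe, with older synonyms allowed, and Spi1 was listed there under its older name Sfpi1. All 9 genes were found, on 10 of the 39556 probes in the value table. Spi1 had 2 probes and the other members 1 each. Keeping only the probe of highest level for each gene left 35027 features, 9 of them members. Of these features 25721 carried a gene symbol, and each probe without a symbol stood as a feature of its own.

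RNA was compared between 3 aortas of ApoE KO mice, which lack apolipoprotein E, and 3 aortas of wild type (WT) C57BL6 mice, all fed a high-fat diet and each hybridised to its own 2-colour Agilent array. Per the labels the ApoE KO mice were 32 weeks old and carried atherosclerotic lesions, whereas the WT mice were 24 weeks old and had none. The protocol instead gives both groups 16 weeks of diet begun at 8 weeks of age, and headings of arrays that could not be assigned to a group name 24 weeks of diet and 8 weeks of a vehicle, so an effect of genotype cannot be told apart from one of age, diet length or vehicle. In both groups the labels of the aorta's own RNA also name db/+ as the background, a heterozygous state of the leptin receptor mutation, and its source names give 9 weeks. Each aorta's RNA carried Cy5 and was set against a common Cy3 reference from WT C57BL6 aortas on the high-fat diet, so a log2 ratio of 0 means the level of that reference. The labels call the arrays biological replicates and do not say whether animals were pooled. WT replicates 2 and 3 carry the same animal number, although their values differed (SD of the difference 0.173 on the log2 scale).

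PU.1, the product of Spi1, is an ETS-family transcription factor that binds purine-rich DNA and without which macrophages do not form. C/EBP alpha and C/EBP beta, IRF8 and Ikaros, the product of Ikzf1, act with it to set the granulocyte, monocyte, dendritic and lymphoid fates of blood progenitors. Monocytes and macrophages live on colony-stimulating factor 1 (CSF1), which is bound by the receptor tyrosine kinase CSF1R, and respond to GM-CSF through a specific alpha chain (Csf2ra) and a signalling beta chain (Csf2rb) that the receptors for interleukin 3 and interleukin 5 share. In atherosclerosis these factors govern the recruitment, survival and proliferation of the macrophages of the lesion.

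Promoters of the members with the largest changes are shown first, with that of Csf2rb2, the close relative of Csf2rb, because PU.1 and STAT factors are known regulators of myeloid genes and the results below contrast the receptor chains. The windows are from RefSeq (GRCm38.p6) and run from 250 bases before the annotated start site to 50 after it, read 5′ to 3′ on the strand of the gene. RefSeq windows were used for 6 of the 9 members, and none was used for Spi1, Csf1r or Csf2rb. Capitals mark matches to 5 motifs searched on both strands: the purine-rich PU.1 motif GAGGAAG, the short ETS core GGAAGT, the C/EBP motif TTGCNNAA, the STAT motif TTCNNNGAA and the composite of ETS and IRF GGAANNGAA. Irf8 lies at chr8:120736108-120736407 on the plus strand, Csf2ra at chr19:61228369-61228668 on the minus strand and Csf2rb2 at chr15:78305672-78305971 on the minus strand.
Irf8: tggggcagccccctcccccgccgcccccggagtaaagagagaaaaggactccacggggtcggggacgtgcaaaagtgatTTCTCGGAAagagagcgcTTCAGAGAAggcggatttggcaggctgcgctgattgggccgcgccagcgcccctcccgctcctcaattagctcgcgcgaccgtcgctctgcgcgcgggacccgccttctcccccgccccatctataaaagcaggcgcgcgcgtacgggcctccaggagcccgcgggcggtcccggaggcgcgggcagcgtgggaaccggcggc
Csf2ra: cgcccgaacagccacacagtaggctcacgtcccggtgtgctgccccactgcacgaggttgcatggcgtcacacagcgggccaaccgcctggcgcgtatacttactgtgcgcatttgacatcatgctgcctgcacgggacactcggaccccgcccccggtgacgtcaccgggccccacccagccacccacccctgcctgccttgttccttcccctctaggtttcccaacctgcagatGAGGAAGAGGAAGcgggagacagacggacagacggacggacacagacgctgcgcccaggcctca
Csf2rb2: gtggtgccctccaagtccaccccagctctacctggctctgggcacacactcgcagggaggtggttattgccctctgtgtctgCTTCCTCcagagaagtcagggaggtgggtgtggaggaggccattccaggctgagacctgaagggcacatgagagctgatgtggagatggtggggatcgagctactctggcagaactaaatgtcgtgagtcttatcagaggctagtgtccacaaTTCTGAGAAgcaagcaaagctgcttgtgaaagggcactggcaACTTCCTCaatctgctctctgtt

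The Irf8 window held 2 matches to the STAT motif, which begin at positions -171 and -153 relative to the start site, and this motif was present in 8.3% of all 32851 promoter windows. The Csf2ra window held 2 matches to the PU.1 motif that share 1 base, beginning at positions -14 and -8, and 13.6% of all windows held that motif. In the Csf2rb2 window the PU.1 motif matched on the opposite strand at 2 places, the second of which overlaps the short ETS core (present in 23.8% of all windows), and the STAT motif matched at 1 place. Of the other windows of members, 1 of the 2 Ikzf1 windows held the STAT motif, and the windows of Cebpb, Cebpa and Csf1, the second Irf8 window and the other Ikzf1 window held no match to any of the 5. The C/EBP motif and the composite motif, present in 10.8% and 8.24% of all windows, matched no window of the 6 members scanned. A match is a run of letters and was not tested for binding.

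Of the 9 genes, 6 rose in ApoE KO aortas and 0 fell at an adjusted p under 0.05 in limma, the linear model fitted over all 35027 features with Benjamini-Hochberg adjustment. Irf8, Csf2ra, Csf1r and Ikzf1 were 2.05 to 3.33 times as high as in WT aortas, Spi1 1.57 times and Cebpb 1.28 times. Csf1, Cebpa and Csf2rb did not pass. Over all features 6.73% were called higher and 8.00% lower. The median log2 fold change was 0.65 over the 9 members and -0.02 over all features. The members were proposed with results of these data known, so these counts describe them and give no independent support. Fold changes are ApoE KO minus WT in log2 units, given with the SE (standard error) of the fit, n = 3 per group.

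**Figure D1:**
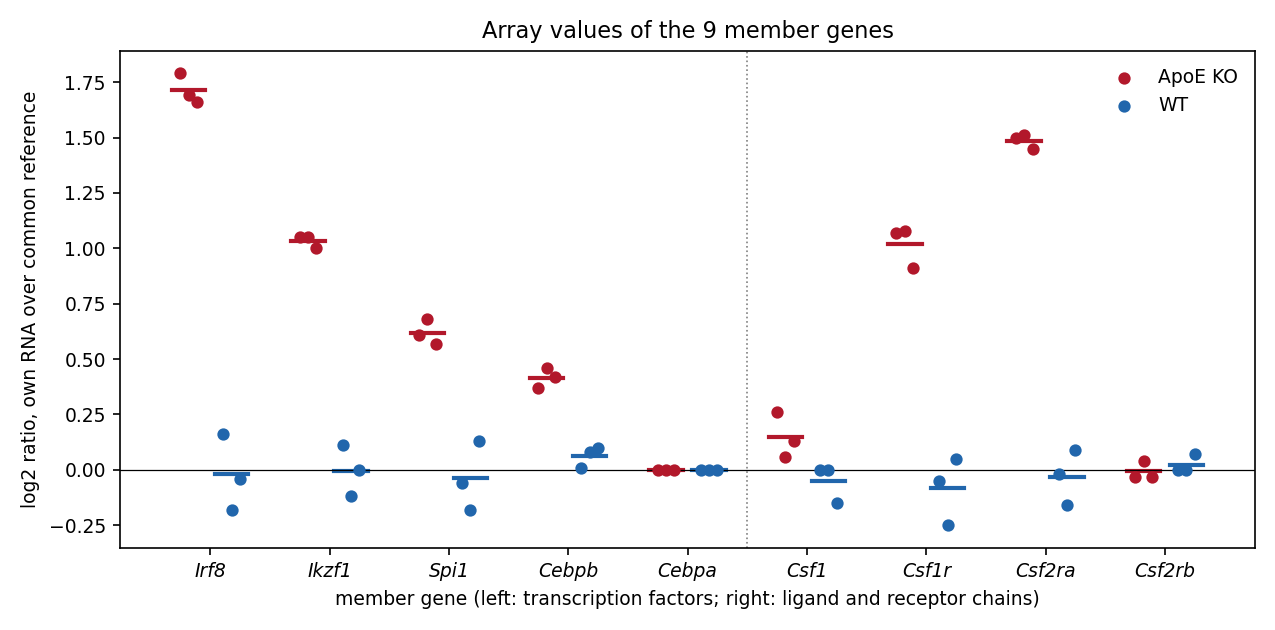
Log2 ratio of own RNA over the common reference (vertical axis) for each of the 9 genes (horizontal axis), with 1 point per array, ApoE KO in red and WT in blue, and a bar at the mean of each group (n = 3). All ApoE KO points lie above all WT points for Irf8, Ikzf1, Spi1, Cebpb, Csf1, Csf1r and Csf2ra, those of Csf2rb overlap, and those of Cebpa are all at 0.

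Irf8, which directs monocyte and dendritic cell development and restrains granulocytes, had the largest difference of the 9. Its log2 ratio was 1.79, 1.69 and 1.66 on the ApoE KO arrays, against 0.16, -0.18 and -0.04 on the WT arrays. The lowest ApoE KO value lay well above the highest WT value. The fold change was 1.74 ± 0.0971 (SE), or 3.33-fold, with an adjusted p of 0.00127 in limma, and it ranked 99 of 35027 features. After quantile normalization between arrays it was 1.06, with an adjusted p of 0.0576. The probe was made for the transcript AK018533 and its mean reference intensity was 0.343, where 1 rounding step of the deposited intensities is 0.04 on the log2 scale.

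Ikzf1 encodes Ikaros, a zinc finger regulator of lymphoid and myeloid progenitors that mature leukocytes also express. On the ApoE KO arrays its log2 ratio was 1.05, 1.05 and 1.00, and on the WT arrays it was 0.11, -0.12 and 0.00. Its fold change of 1.04 ± 0.0624 (SE), or 2.05-fold, had an adjusted p of 0.00148 in limma. This probe was dim, with a reference intensity of 0.13 on each of the 3 WT arrays, and the difference between groups came to 13.7 rounding steps of 0.01 in intensity. The call was lost after quantile normalization (0.65, adjusted p 0.0761). The 4 other Ikaros family genes (Ikzf2 to Ikzf5) gave 0 calls. Ikzf3 gave no usable measurement, with a log2 ratio of exactly 0.00 on every array at a reference intensity of 0.0367. Ikzf2 and Ikzf4 were also dim (0.133 and 0.213). Ikzf5 was brighter (3.85), and its groups lay apart on the lower side (-0.18, adjusted p 0.102 in limma). As 6.73% of all features were called higher, 0 calls among 4 genes do not set Ikzf1 apart. Whether the rise is particular to Ikzf1 was not tested.

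Spi1 rose less than its partner Irf8. The probe for NM_011355 had log2 ratios of 0.61, 0.68 and 0.57 on ApoE KO arrays, against -0.06, -0.18 and 0.13 on WT arrays. The groups did not overlap, with a fold change of 0.65 ± 0.0913 (SE), or 1.57-fold, and an adjusted p of 0.0143 in limma. The call was lost when ApoE KO replicate 1, 2 or 3 or WT replicate 1 was left out (adjusted p 0.0605, 0.055, 0.0551 and 0.0606), although the fold change stayed between 0.58 and 0.739 with any 1 array left out. After quantile normalization it was 0.50 (adjusted p 0.134). The second Spi1 probe had a mean reference intensity of 0.0567, where 1 rounding step is 0.23 on the log2 scale, and a ratio of exactly 0 on all 6 arrays. Averaging both probes therefore gave 0.327, a value that the dim probe decides.

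Cebpb encodes C/EBP beta, an inflammation-induced activator of cytokine genes in macrophages that fibroblasts and fat cells use as well. Its probe was bright (mean reference intensity 46), and ApoE KO arrays had log2 ratios of 0.37, 0.46 and 0.42, against 0.01, 0.08 and 0.10 on WT arrays. This small difference was larger than the spread between replicates, at 0.35 ± 0.0348 (SE), or 1.28-fold, with an adjusted p of 0.00542 in limma. It was 0.17 after quantile normalization and no longer passed (adjusted p 0.192). Its family member Cebpd, also induced in inflammation, had a fold change of 0.20 and did not pass (adjusted p 0.176), although it passed at a level of at least 0.5 (adjusted p 0.0471).

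For Cebpa, which drives granulocyte and monocyte progenitors and is also a master regulator of fat cells, the probe gave no usable measurement. Its log2 ratio was exactly 0.00 on all 6 arrays at a mean reference intensity of 0.0667, with values of 0.05 to 0.08 on the WT arrays. At that intensity 1 rounding step of 0.01 is 0.20 on the log2 scale, so a difference of that size or less was not detectable, and the narrow interval of the fit reflects the rounding.

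Csf2ra, the ligand-specific alpha chain of the GM-CSF receptor, was the most strongly raised receptor gene of the 9. Its log2 ratio was 1.50, 1.51 and 1.45 on ApoE KO arrays, against -0.02, -0.16 and 0.09 on WT arrays. The ApoE KO arrays lay within 0.0631 of each other, and all stood far above the WT arrays. The fold change of 1.52 ± 0.0681 (SE), or 2.86-fold, had an adjusted p of 0.000815 in limma. It passed under all alternatives run, quantile normalization included (1.03, adjusted p 0.0114).

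Csf1r, the receptor through which CSF1 and interleukin 34 keep macrophages alive, had log2 ratios of 1.07, 1.08 and 0.91 on ApoE KO arrays, against -0.05, -0.25 and 0.05 on WT arrays. The groups did not overlap, and the fold change was 1.10 ± 0.0961 (SE), or 2.15-fold, with an adjusted p of 0.00373 in limma. With Csf2ra it was 1 of the 2 members still called after quantile normalization (0.80, adjusted p 0.0273).

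Csf1, which encodes the growth factor that CSF1R binds, did not pass. On the ApoE KO arrays the log2 ratios were 0.26, 0.06 and 0.13, and they were 0.00, 0.00 and -0.15 on the WT arrays. All ApoE KO values were above all WT values, but the groups lay 3.06 rounding steps of 0.01 apart on a probe with a reference intensity of 0.21. The fold change was 0.20 ± 0.0731 (SE) with a 95% interval of 0.01 to 0.40 and an adjusted p of 0.168 in limma. Groups did not overlap, with ApoE KO on the higher side, for 7 of the 9 members and for 11.0% of all features.

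Csf2rb, the beta chain that the GM-CSF, interleukin 3 and interleukin 5 receptors share, showed no rise on its probe. Its log2 ratio was -0.03, 0.04 and -0.03 on ApoE KO arrays, against 0.00, 0.00 and 0.07 on WT arrays, and these ranges overlap. The fold change was -0.03 ± 0.0316 (SE), with a 95% interval of -0.11 to 0.05 and an adjusted p of 0.525 in limma. The interval ends at 1.04-fold, below the 2.86-fold rise of the alpha chain. The probe's reference intensity was 0.407, where 1 rounding step is 0.04 on the log2 scale.

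Csf2rb2, a neighbouring gene that in mouse encodes a beta chain specific to interleukin 3, gave a different value. ApoE KO replicates 1 and 2 had log2 ratios of 2.43 and 2.23, with no value on replicate 3, against 0.28, -0.05 and 0.05 on the WT arrays. A fit over every probe that kept missing values, chosen after the data were seen, gave 2.24 ± 0.135 (SE), or 4.71-fold, with an adjusted p of 0.00409 in limma over 5 arrays. The fit over genes leaves this probe out because of its missing value. Both beta chains have closely similar sequences, and the probe sequences were not used here, so which of the 2 transcripts each probe reads was not tested.

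**Figure D2:**
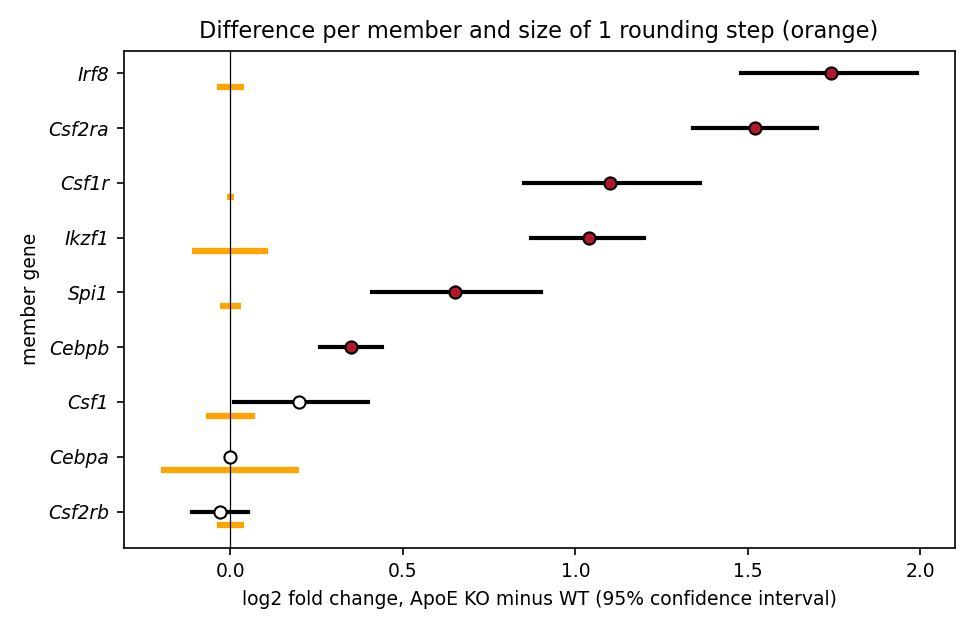
Log2 fold change, ApoE KO minus WT (horizontal axis), for the 9 genes ordered by size (vertical axis), with the 95% confidence interval of the limma fit as a black line and filled points where the adjusted p was under 0.05. Orange bars span 1 rounding step of 0.01 in intensity on either side of 0, which is widest for Cebpa (0.20) and narrower than the interval's distance from 0 for the 6 genes called higher.

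The order of the fold changes was Irf8, Csf2ra, Csf1r, Ikzf1, Spi1, Cebpb, Csf1, Cebpa and Csf2rb. Differences between members were formed within each array for 7 pairs, as the log2 ratio of 1 gene minus that of the other. They compare changes from the common reference and not amounts of transcript. Of the 7 pairs 5 are neighbours in this order and were therefore chosen from it, so the values are a description with no test. The log2 ratio of Csf2ra exceeded that of Csf1r by 0.47 ± 0.06 (SD, n = 3) on ApoE KO arrays and by 0.05 ± 0.03 on WT arrays. No ApoE KO value fell among the WT values. Csf2ra minus Csf2rb was 1.49 ± 0.04 on ApoE KO arrays and -0.05 ± 0.09 on WT arrays (SD, n = 3 each), again with groups apart. For the receptor Csf1r minus its ligand Csf1 the value was 0.87 ± 0.13 on ApoE KO arrays, against -0.03 ± 0.22 on WT arrays (SD, n = 3 each), also with groups apart. Between Csf1r and Ikzf1 the groups overlapped (-0.02 ± 0.07 on ApoE KO and -0.08 ± 0.11 on WT arrays, SD), so these neighbours in the order did not differ beyond their spread. Ikzf1 minus Spi1 and Spi1 minus Cebpb also had groups apart, with differences between groups of 0.38 and 0.30. For Irf8 minus Csf2ra the difference between groups was 0.22. Its lowest ApoE KO value (0.19) and highest WT value (0.18) lay closer than 1 rounding step of the Irf8 probe (0.04), so their separation was not resolved.

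The range of the called members was wider among WT arrays than among ApoE KO arrays for 6 of 6 genes, though barely for Cebpb (0.0885 against 0.0864). WT replicate 2 was the lowest WT array for 5 of these 6 and ApoE KO replicate 3 the lowest ApoE KO array for 5. The shares of all features with these orders were not counted, so they may be traits of the arrays and not of the members.

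Of the 9 members, 5 reached a level of at least 0.5, in the authors' intensity units, and Irf8 did so because the level includes its ApoE KO ratios. In a fit restricted to the 9034 features with such a level, where 19.0% were called higher, the adjusted p was 5.08e-06 for Irf8, 2.71e-06 for Csf2ra, 5.24e-05 for Csf1r, 0.00053 for Spi1 and 0.000634 for Cebpb. When features were instead chosen by a reference intensity of at least 0.5, which leaves the ApoE KO ratios out, 4 members entered and Irf8 did not. Ikzf1, Csf1, Csf2rb and Cebpa entered neither.

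Of 36 other myeloid transcription factors measured, 12 rose, 2 fell and 22 did not pass, with a median log2 fold change of 0.17. Irf5, which drives inflammatory cytokine genes in macrophages, rose by 1.50 ± 0.0879 (SE). Ahr, the aryl hydrocarbon receptor, had 1.17 ± 0.0961, and Tfec, a macrophage-restricted relative of Mitf, 1.07 ± 0.0585. In limma the adjusted p was 0.0014 for Irf5, 0.0012 for Tfec and 0.00325 for Ahr. After quantile normalization Tfec was at 0.64 and still called. The 2 that fell were Cebpe (-0.28), a late granulocyte factor, and Spib (-0.20), the lymphoid relative of PU.1, both named after their values were seen. The Cebpe probe had a reference intensity of 0.0467, and its groups lay less than 1 rounding step of 0.01 apart. Of the 12 that rose, Cebpg and Spic, also named after their values were seen, had reference intensities of 0.07 and 0.0567. Their groups lay 1.61 and 1.85 such steps apart. Spib lost its call in 8 of 18 alternatives, among them leaving out ApoE KO replicate 1 or 3 or any 1 WT array (adjusted p up to 0.108), and took the opposite sign, 0.134, when its probes were averaged.

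Among 12 other ligands and receptors of these pathways, 2 rose and 0 fell, with a median of 0.07. Il3ra, the alpha chain of the interleukin 3 receptor, had log2 ratios of 0.51, 0.68 and 0.52 on ApoE KO arrays, against 0.00, -0.07 and 0.10 on WT arrays. Its groups were apart, at 0.56 ± 0.0679 (SE) with an adjusted p of 0.00956 in limma, and the call was lost after quantile normalization (adjusted p 0.0938). Flt3, a receptor of dendritic cell progenitors, was at 0.52 ± 0.106 (adjusted p 0.0417) on a probe with a reference intensity of 0.0633, and lost its call in 8 of 15 alternatives, among them leaving out ApoE KO replicate 2 or 3 or any 1 WT array (adjusted p up to 0.127). Il34, the other ligand of CSF1R, did not pass (0.15, 95% interval -0.07 to 0.37), and neither did the progenitor receptor Kit (0.51, adjusted p 0.0875). Csf2, which encodes GM-CSF (0.09), and Csf3r, the receptor for the granulocyte factor (0.09), had reference intensities of 0.0367 and 0.0867, where 1 rounding step is 0.35 and 0.16 on the log2 scale.

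Of 25 signalling genes below these receptors 16 rose and 0 fell, with a median of 0.29. Tyrobp, an adaptor that CSF1R signalling uses in macrophages, rose by 2.25 ± 0.112 (SE), and Pik3r5, a regulatory subunit of the leukocyte PI3-kinase gamma, by 2.25 ± 0.0255. Inpp5d, the SHIP1 phosphatase that limits this pathway, rose by 1.79 ± 0.0815. The adjusted p values of these 3 genes ran from 0.000125 for Pik3r5 to 0.001 for Tyrobp in limma. With the probes of the gene averaged, Pik3r5 was at 1.08, so its probes disagree in size. After quantile normalization Tyrobp was at 1.40, Pik3r5 at 1.45 and Inpp5d at 1.08, and all 3 were still called. The 16 raised genes include Pik3cg, named after its value was seen, on a probe with a reference intensity of 0.0433. Its groups lay 0.96 of a rounding step of 0.01 apart. Of the kinase and transcription factors directly below the GM-CSF receptor, Jak2 was at 0.07 (95% interval -0.18 to 0.33) and Stat5b at 0.06 (-0.03 to 0.15), and neither passed. Their reference intensities were 0.09 and 0.137, where 1 rounding step is 0.15 and 0.10 on the log2 scale. Stat5a rose by 0.17 ± 0.0319 (adjusted p 0.031), a call lost when ApoE KO replicate 1, 2 or 3 or WT replicate 1 was left out, with an adjusted p of at most 0.112 among these, and after quantile normalization (adjusted p 0.426).

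Of 20 textbook target genes of PU.1 in macrophages 12 rose and 0 fell, with a median of 1.19. The largest were Ptprc, the common leukocyte antigen CD45, at 2.27 ± 0.123 (SE), Tyrobp, Adgre1, a surface receptor that marks mouse macrophages, at 1.98 ± 0.113, and the Fc receptor gene Fcgr3 at 1.91 ± 0.109. After quantile normalization Ptprc was at 1.498 and Fcgr3 at 1.255, both still called. The list shares 7 genes with the macrophage markers below, and 6 of the 13 it does not share were called higher. Among the 8 that did not pass were the integrin genes Itgam (-0.29) and Itgb2 (0.24) and the cytokine gene Tnf (-0.09), named after their values were seen. The Itgb2 probe had a reference intensity of 0.0633, where 1 rounding step is 0.21 on the log2 scale. Itgam and Tnf had groups apart on the lower side, and each passed as lower in 2 of 18 alternatives.

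**Figure D3:**
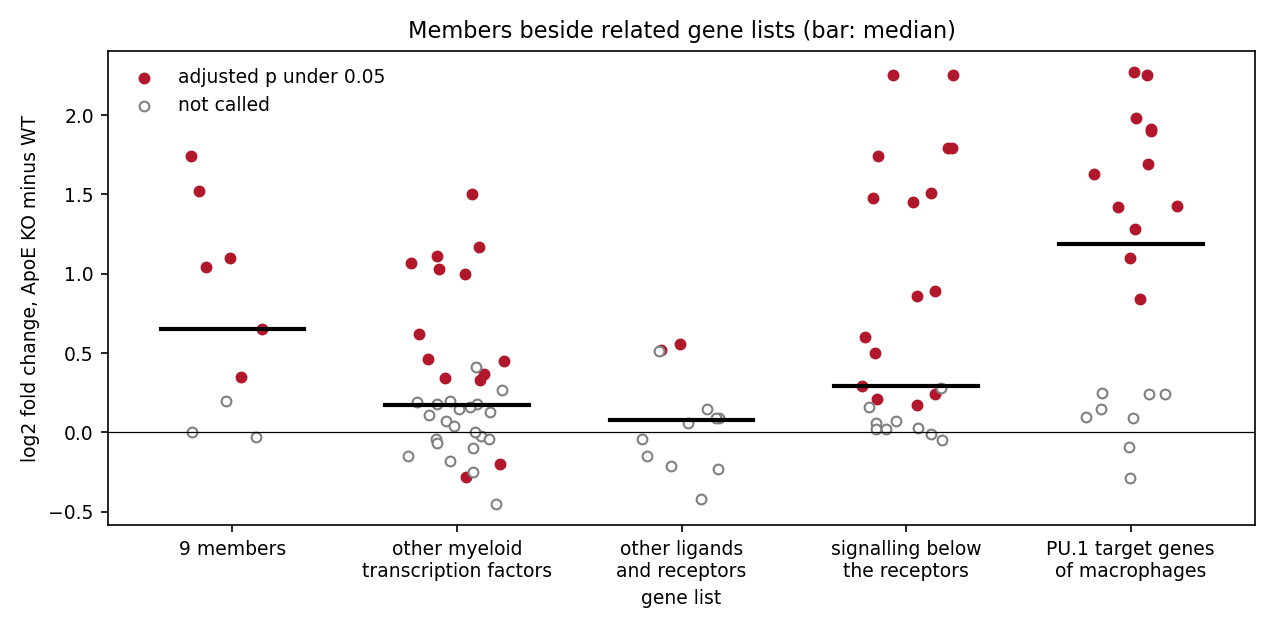
Log2 fold change, ApoE KO minus WT (vertical axis), of each measured gene in the 9 members and 4 related lists (horizontal axis), filled where the adjusted p was under 0.05, with a bar at the list median. Medians were 0.65 for the members, 0.17 for other transcription factors, 0.07 for other ligands and receptors, 0.29 for signalling genes and 1.19 for PU.1 targets.

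Markers of several cell types moved with the members. In whole aorta, more cells of a type and more RNA per cell cannot be told apart. Of 15 macrophage markers 11 were called higher and 0 lower, with a median log2 ratio of 1.48, 1.51 and 1.48 on ApoE KO arrays and 0.03, -0.11 and 0.06 on WT arrays, and a summed level of 229 to 272 on ApoE KO and 49.6 to 63.1 on WT arrays. The sum rests mostly on C1qa (reference intensity 36.2, log2 fold change 1.91), named after its value was seen, with Ctss next at a reference intensity of 5.4. It therefore does not describe the list as a whole. WT replicate 2 was the lowest WT array here as well, by median and by sum. The fold changes of these markers ran from -0.21 to 3.21, with a median of 1.43. Of the called members, Irf8 (1.74) and Csf2ra (1.52) lay above that median. Csf1r (1.10), Ikzf1 (1.04), Spi1 (0.65) and Cebpb (0.35) lay below it. The part of macrophage RNA in the changes of the members was not tested.

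Markers of other cells that use these genes were mostly dim: the monocyte, neutrophil, dendritic cell and T and NK cell lists each had 2 markers with a level of at least 0.5, and the B cell list had 0. The summed level of the dendritic cell markers was 23 to 25.8 on ApoE KO and 7.71 to 7.94 on WT arrays, that of the neutrophil markers 6.11 to 8.92 on ApoE KO and 3.6 to 4.14 on WT arrays, and that of the monocyte markers 103 to 118 on ApoE KO and 48.6 to 64.4 on WT arrays. The dendritic cell, neutrophil and monocyte sums rest mostly on the few brightest probes of each list, named after their values were seen. For dendritic cells these were Itgax (reference intensity 3.13, log2 fold change 2.57) and Zbtb46 (3.24, -0.02). For neutrophils they were S100a9 (2.05, 1.17) and S100a8 (0.517, 1.14). For monocytes it was Fn1 (57.5, 0.95), with Plac8 next at a reference intensity of 0.993. The sums therefore do not describe the lists as a whole. Of 11 neutrophil markers 3 rose and 0 fell (median 0.11), of 9 dendritic cell markers 4 rose and 1 fell (0.11), and of 5 monocyte markers 3 rose (0.72). Of 11 T and NK cell markers 1 rose (0.11), of 8 B cell markers 0 rose and 1 fell (-0.04), and of 6 markers of blood progenitors 1 rose (0.19). Adipocyte markers, relevant because fat cells use Cebpa and Cebpb, had a median of 0.00, with 1 of 9 higher and 1 lower. The lower marker, Lep, had groups less than 1 rounding step of 0.01 apart at a reference intensity of 0.0967. Of 9 smooth muscle markers 7 fell (median -0.63). Endothelial markers rose in 2 of 8 (0.25) and fibroblast markers in 3 of 8, with 1 lower (0.20). Of 9 heart muscle markers 1 rose and 0 fell (0.46). They varied within groups, with medians of -0.59, 0.39 and 0.70 on ApoE KO arrays and 0.00, -0.71 and 0.00 on WT arrays. Their summed level was 17, 33.6 and 32.9 on ApoE KO replicates 1, 2 and 3. ApoE KO replicate 3, highest by median, was the lowest ApoE KO array for 5 of the 6 called members. ApoE KO replicate 2, highest by summed level, was the lowest for 0 of them. Any link of heart muscle RNA with the members was not tested.

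**Figure D4:**
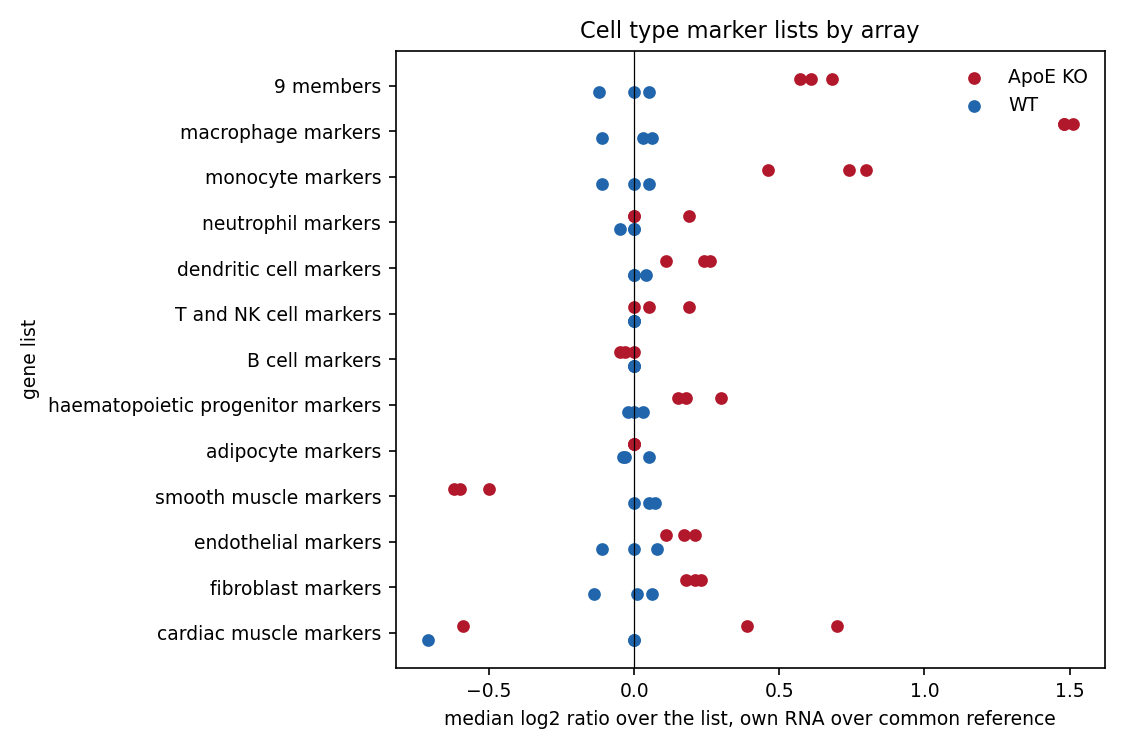
Median log2 ratio over each list (horizontal axis) for the 9 members and 12 lists of cell type markers (vertical axis), with 1 point per array, ApoE KO in red above WT in blue. On the ApoE KO arrays macrophage markers lie furthest right (1.48 to 1.51), the 9 members lie at 0.57 to 0.68, and smooth muscle markers lie at -0.62 to -0.50.

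Each array measured 39480 to 39551 probes, and precision is limited by how many arrays there were. Apoe itself was lower on the ApoE KO arrays by 1.21 on the log2 scale, at -1.21 ± 0.128 (SE, adjusted p 0.00649 in limma), which follows the labels. Whether its probe lies inside the deletion was not tested. Exact zeros made up 36.2 to 38.5% of ratios on ApoE KO arrays and 48 to 58.9% on WT arrays.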

How the data were processed

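Own RNA of 3 ApoE KO and 3 WT aortas (Cy5) was compared with a common reference (Cy3) on 2-colour arrays, and the submitters' processing notes name Agilent Feature Extraction 8.5.1.1. RNA was amplified in repeated rounds per the labels' protocols, which can compress differences. The deposited value table holds log10 ratios, converted here to log2. The deposited intensity table gives intensities in arbitrary units to 2 decimals. From that table the WT arrays' reference channel was used, and 15 other value columns were not. Where the WT arrays shared 1 reference intensity, reference times ratio fell on a whole hundredth (within 0.0005) for 99.9% of 1449 ratios, against 17% with the sign turned and 0.345% if read as log2, which fixed scale and direction. Array medians were 0, and whether the ratios were centred is unknown. The level of a probe was its mean reference intensity on the WT arrays times the mean of 1 and its average ratio.

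Left out were 194 probes that lacked a value on an array. Probes were named through RefSeq genes (GRCm38.p6), of which 6984 matched on accession, 16552 on symbol and 2557 on an older synonym. A further 3963 kept the symbol of the deposited intensity table, and 9306 had no gene name. All features were fitted with lmFit and eBayes of limma 3.58.1 (R 4.3.3), with genotype as the term, two-sided, and the script was tested on simulated data. Members, lists, the naming rule and most alternatives were chosen with earlier results of these data known. Named were all members, up to 4 called genes of each list with the largest differences and non-overlapping groups, and fixed partner genes, besides those marked as named later. Some genes that the rule names are not reported here.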

Additional observations from a re-analysis of the deposited data

How the results depend on the processing

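Called directions of the 6 raised members were kept under every alternative run. Quantile normalization, which brings ApoE KO arrays (SD of the log2 ratio 0.237 to 0.259) and WT arrays (0.0765 to 0.136) to 1 distribution, left 2 members called and ended the calls of Irf8 (1.059), Ikzf1 (0.6486), Spi1 (0.4962) and Cebpb (0.171). It gave 871 higher and 780 lower calls over all features, against 2357 and 2801, and centring gave 3205 and 1773. The labels share replicate numbers, but same-numbered arrays deviated with correlations of 0.078, -0.469 and -0.145, so they were not treated as paired. With a replicate block, 4 members were called, and Spi1 (0.6548, adjusted p 0.107) and Csf1r (1.101, adjusted p 0.0583) were not. Leaving out 1 array in turn gave 5 or 6 called members, and Spi1 lay between 0.5805 and 0.7389. The median over the members was 0.4962 after quantile normalization, 1.101 at a level of at least 0.5 (5 members), 0.8781 at a reference intensity of at least 0.5 (4 members, added after seeing the data), 0.8459 without the dimmest 25% of features or with exact zeros on dim probes set to missing (8 members each), 0.3511 when probes of a gene were averaged, and 0.5805 to 0.7389 with 1 array left out. The filters act by removing members, and the mean of probes by adding the dim Spi1 probe.

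List counts moved as follows. Lower transcription factors numbered 1 with centring, quantile normalization, the mean of probes or without the dimmest features, and 1 to 4 with 1 array left out. Higher ligands and receptors numbered 0 after quantile normalization or with the block, 1 at a level or reference intensity of at least 0.5 or with trend and robust eBayes, and 1 to 2 with 1 array left out. Lower ones numbered 1 under both intensity filters, without the dimmest features and with array weights, 3 with exact zeros set to missing, and 0 to 1 with 1 array left out. Higher signalling genes numbered 8 after quantile normalization. PU.1 targets numbered 7 higher at a reference intensity of at least 0.5, and 1 was lower under both intensity filters and with array weights, and 0 to 1 with 1 array left out. Of genes outside the members, Spib turned to 0.1336 with the mean of its probes and Myb to -0.09301 without ApoE KO replicate 2 (-0.09301 to 0.2757 with 1 array left out). Without that array Myb was called lower, by a difference the size of 1 rounding step of its probe (0.09). For Spib the cause was not tested.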

Other observations

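Of 3 feedback regulators that these cytokine receptors induce, 2 rose, and the genes given here were named after their values were seen. Socs3, an inhibitor of STAT3 signalling, had log2 ratios of 1.55, 1.43 and 1.54 on ApoE KO arrays, against 0.16, -0.14 and -0.02 on WT arrays, a fold change of 1.51 ± 0.0894 (SE) with an adjusted p of 0.00142 in limma. After quantile normalization it was at 0.92 and no longer passed (adjusted p 0.0769). Cish, a target of STAT5, was at 0.50 ± 0.0821 (adjusted p 0.0235), and lost its call in 6 of 16 alternatives, among them leaving out ApoE KO replicate 2 or 3 or WT replicate 1 or 2 (adjusted p up to 0.091) and quantile normalization (adjusted p 0.246). Socs1, an inhibitor of JAK kinases, was at -0.01 and did not pass. Of transcription factors outside the naming rule, Egr2, which CSF1 signalling induces in macrophages, rose by 1.03 (adjusted p 0.00129), Batf3, a dendritic cell factor, by 1.00 (adjusted p 0.0023) and Runx1, which opens the Spi1 locus in blood development, by 0.62 (adjusted p 0.00402). After quantile normalization Egr2 was at 0.67 and Batf3 at 0.66, both still called.

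Among factors of immature blood cells, Tal1 rose by 0.40 (adjusted p 0.0171), a call that ended when any 1 ApoE KO array or WT replicate 3 was left out (adjusted p up to 0.0717) and under quantile normalization (adjusted p 0.294), whereas Gata2 (0.22, adjusted p 0.235), Gfi1 (0.07) and Myb (0.15) did not pass. The Myb value rests on ApoE KO replicate 2 (0.64, against -0.09 on each of the other ApoE KO arrays and 0.00 on the WT arrays).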
